A study of Mus musculus with 2 samples.

Results

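Heat shock proteins and chaperonins are molecular chaperones, proteins that help other proteins fold, assemble, cross membranes or avoid clumping. The genes described here were the protein-coding genes whose symbol starts with Hspa, Hspb, Hspd, Hspe, Hsph, Hsp90 or Dnaj, together with the named subunits of the cytosolic chaperonin. The GENCODE M21 annotation holds 81 such genes, of which 80 had a row in the deposited gene tables, out of 21461 nuclear protein-coding genes and 69691 listed features. The rule uses names and no measured value, but it was chosen with earlier results of these data known. The remaining gene, Hspa14, which encodes a ribosome-associated HSP70, has another identifier in M21 than in the tables. Cct6a, a subunit of the chaperonin, is classed in M21 as a processed transcript and so falls outside the protein-coding rule. Its values are given beside the other subunits. Hspbp1, an exchange factor of HSP70, and Hspbap1 match by prefix only and are not heat shock proteins.

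The libraries were made from total RNA, depleted of ribosomal RNA, of primary erythroblasts, the cells in bone marrow that mature into red blood cells. The cells came from adult male C57BL/6J mice aged 5 to 6 weeks, with 100 ng of RNA for each library, and no treatment or genetic change is given. The design holds 1 group with 2 replicates and no control, so nothing here compares conditions. Each replicate is a biosample of its own, but both carry 1 donor record, so part of their spread can be technical. The size range given was 200 to 764 for replicate 1 and 138 to 1000 for replicate 2, and its effect on levels was not tested.

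HSP70 proteins bind short stretches of unfolded protein and release them in a cycle driven by ATP. J proteins, which carry the Dnaj prefix, deliver clients and speed up the ATP step, and HSP110 proteins exchange the nucleotide. HSP90 acts later on selected clients such as kinases and steroid receptors, chaperonins enclose a client in a ring, and small heat shock proteins hold unfolded proteins without ATP. Erythroblasts make very large amounts of globin, and HSP70 is known to protect the transcription factor GATA1 from cleavage during their maturation.

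Replicate 1 held 37312621 expected counts and replicate 2 held 22464713, so that a count of 0 allows up to 0.0804 and 0.134 CPM, counts scaled to a total of 1000000 (3 counts of the library, counting error only). Deposited TPM, an abundance that allows for transcript length, is a share of all features. Protein-coding genes held 11.3% of it in replicate 1 and 6.89% in replicate 2. Levels are therefore given as coding-scaled TPM, a scale on which each library's nuclear protein-coding genes add up to 1000000. All 10 erythroblast markers used (globins, Alas2, Slc4a1, Klf1, Gata1, Tfrc and Epb42) reached a level of 1 in both libraries, and they summed to 402861 and 345472. Without the globins, the other 6 erythroblast markers summed to 14979 and 17131. All 8 neutrophil markers reached 1 as well, with sums of 19790 and 19435, above those of the 6 erythroblast markers in both libraries. All 5 of 5 macrophage markers also reached 1, with sums of 160 and 167. Megakaryocyte markers reached 1 for 3 of 5, with sums of 115 and 138. The sums were 8.09 and 3.34 for T cell markers (1 of 4 reached 1, Cd8a at 0), 13.7 and 12.8 for endothelial and stromal markers (2 of 4, Cdh5 at 0), and 1.07 and 0.44 for B cell markers (0 of 4, Pax5 at 0). The part of other cells in any level below was not tested, and in bulk RNA fewer cells of a type and less RNA per cell cannot be told apart.

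Most of the chaperone genes were expressed. A level of at least 1 in both libraries was reached by 61 of 80 members (76.25%), against 43.9% of all protein-coding genes. A mean of at least 100 was reached by 14 members, against 4.84% of all protein-coding genes. No count in either library was found for 11 members, against 39.0% of all protein-coding genes, and 5 more had counts in 1 library only. The members' median level was 12.8 and 11.3 in the libraries, where that of all protein-coding genes was 0.53 and 0.58. On average 0.618% ± 0.0110 (SD, n = 2) of all coding-scaled TPM lay in these genes. A few genes held most of it: the 10 highest took 70.9% and 71.4% of the members' summed level, and Hspa5 with Hspa8 alone took 28.8% and 28.0%. At the limit of 1, the nearest member above it was Dnajc12, with levels of 1.42 and 1.89, and the nearest below it was Hspa2, with 0.71 and 1.74.

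**Figure D1:**
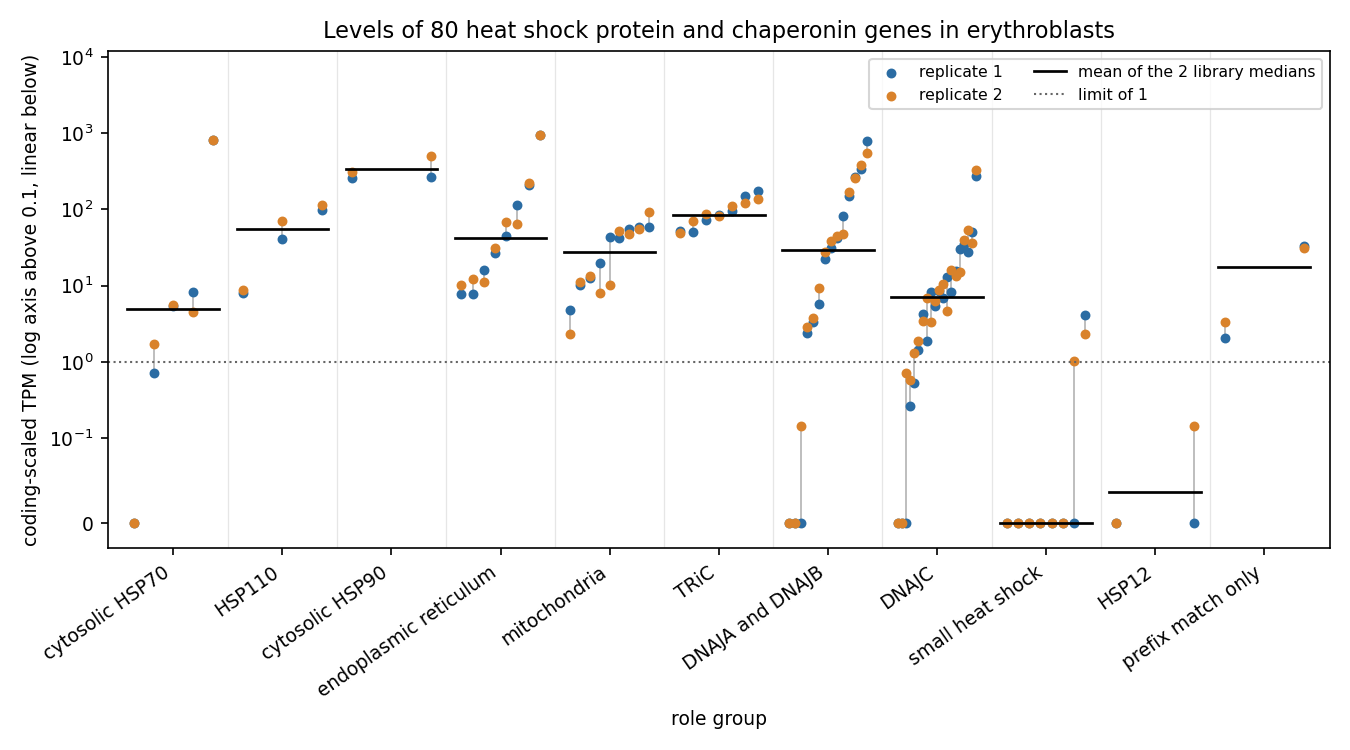
Level of each of the 80 genes in coding-scaled TPM (vertical axis, logarithmic above 0.1) by role group, with 1 point for each library, a bar at the mean of both library medians and a dotted line at 1. Cytosolic HSP90 (335) and TRiC (85.0) had the highest group medians, and small heat shock genes had a median of 0.

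Cytosolic HSP70 was almost wholly the constitutive gene. Hspa8 encodes HSC70, the HSP70 made in unstressed cells, which also strips clathrin from vesicles. Its level was 809 in replicate 1 and 801 in replicate 2 (805 ± 5.59, SD, n = 2), from 23519 and 12277 counts, at percentile 98.9 of the 12895 protein-coding genes with any TPM. Hspa8 shares exon bases on its own strand with the small RNAs Snord14c, Snord14d and Snord14e, which had at most 44.9 counts. The stress-inducible pair lay far below it. Hspa1a had 5.33 and 5.66, and Hspa1b had 8.35 and 4.50. Per length, Hspa8 was 59.1 times as high as Hspa1a and Hspa1b together in replicate 1 and 78.9 times in replicate 2. Both inducible genes have a single exon, so their reads cannot be told apart from unspliced RNA or genomic DNA. The genes of the pair also share sequence: of 2918 windows of 50 bases in the transcript of Hspa1a, 1716 (58.8%) occur in that of Hspa1b, 232 (7.95%) in that of Hspa1l and 0 in that of Hspa8. The split of reads between Hspa1a and Hspa1b is thus uncertain, and their sum was 13.7 and 10.2. Hspa1a also shares 564 exon bases with Gm20481 on the opposite strand, which had no counts. Hspa1l, a relative expressed mainly in testis, had at most 1.04 counts, and shares 1778 exon bases with Gm10501 on the opposite strand. Hspa2, also best known from testis, had 26 and 31 counts. By its 6 transcripts, Hspa14 had levels of 42.0 and 50.2.

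The promoters of the inducible pair are shown since they carry 2 units of the motif that heat shock factor binds. The motif consists of units of 3 bases, GAA or its reverse TTC, each unit followed by 2 bases of any kind. Each line gives the 250 bases before the start site that RefSeq lists (GRCm38.p6), 5′ to 3′ on the gene's strand, with a pair of facing units (GAANNTTC or TTCNNGAA) in capitals.
Hspa1a, chr17:34972157-34972406, minus strand: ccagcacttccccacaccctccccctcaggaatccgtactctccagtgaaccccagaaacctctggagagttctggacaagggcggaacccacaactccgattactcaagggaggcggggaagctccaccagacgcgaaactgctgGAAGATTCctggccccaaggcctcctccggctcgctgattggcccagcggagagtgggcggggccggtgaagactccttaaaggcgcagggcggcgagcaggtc
Hspa1b, chr17:34959239-34959488, minus strand: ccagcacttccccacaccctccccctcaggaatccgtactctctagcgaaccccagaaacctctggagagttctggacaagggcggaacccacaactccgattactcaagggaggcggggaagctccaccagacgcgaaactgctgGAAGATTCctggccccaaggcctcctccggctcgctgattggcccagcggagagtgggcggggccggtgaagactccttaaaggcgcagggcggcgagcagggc
These stretches were the same at 247 of 250 bases, and in both the pair begins 104 bases before the start site. Neither holds a run of 3 units. A facing pair stood in 14.5% of the promoters of 27025 genes, and a match is not a measured binding site.

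All 3 HSP110 genes were expressed. Hspa4 encodes APG-2, the main exchange factor of cytosolic HSP70. It had 98.1 and 116 (107 ± 12.5, SD, n = 2). Hspa4l, its close relative, had 40.3 and 70.9, and most of its counts fell in transcripts that M21 no longer lists. Without retained intron and processed transcripts Hspa4 stood at 39.1 and 37.9. That setting could not drop unlisted transcripts, which have no class in M21. An unlisted transcript of 670 bases held 51.8% and 49.4% of the TPM of Hspa4l. Hspa4l thus kept 40.3 and 70.9, and that setting cannot order the pair. Hsph1, the stress-inducible HSP110, had 8.00 and 8.70, below both relatives in each library. Of the distant HSP70 relatives plotted as HSP12, Hspa12a had no counts and Hspa12b had 0 and 3.

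Both cytosolic HSP90 genes were among the 7 highest members. Hsp90aa1, the inducible alpha form, had 267 in replicate 1 and 506 in replicate 2 (387 ± 169, SD, n = 2). Hsp90ab1, the constitutive beta form, had 260 and 308 (284 ± 34.3). The genes were level in replicate 1, where beta over alpha was 0.971, and apart in replicate 2, where it was 0.609. Raw counts did not show that split, with beta over alpha at 0.715 and 0.743. The high level of Hsp90aa1 in replicate 2 lay in short transcripts of the retained intron class. Hsp90aa1-205, of 487 bases, held 3.78% of the gene's TPM in replicate 1 and 34.2% in replicate 2, and Hsp90aa1-204, of 325 bases, held 0 and 12.7%. The main coding transcript, Hsp90aa1-202, had levels of 171 and 168. Without retained intron and processed transcripts the gene stood at 255 and 267, and beta over alpha at 0.873 and 0.966. The difference between the means of the HSP90 genes was smaller than the spread of Hsp90aa1 between replicates.

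**Figure D2:**
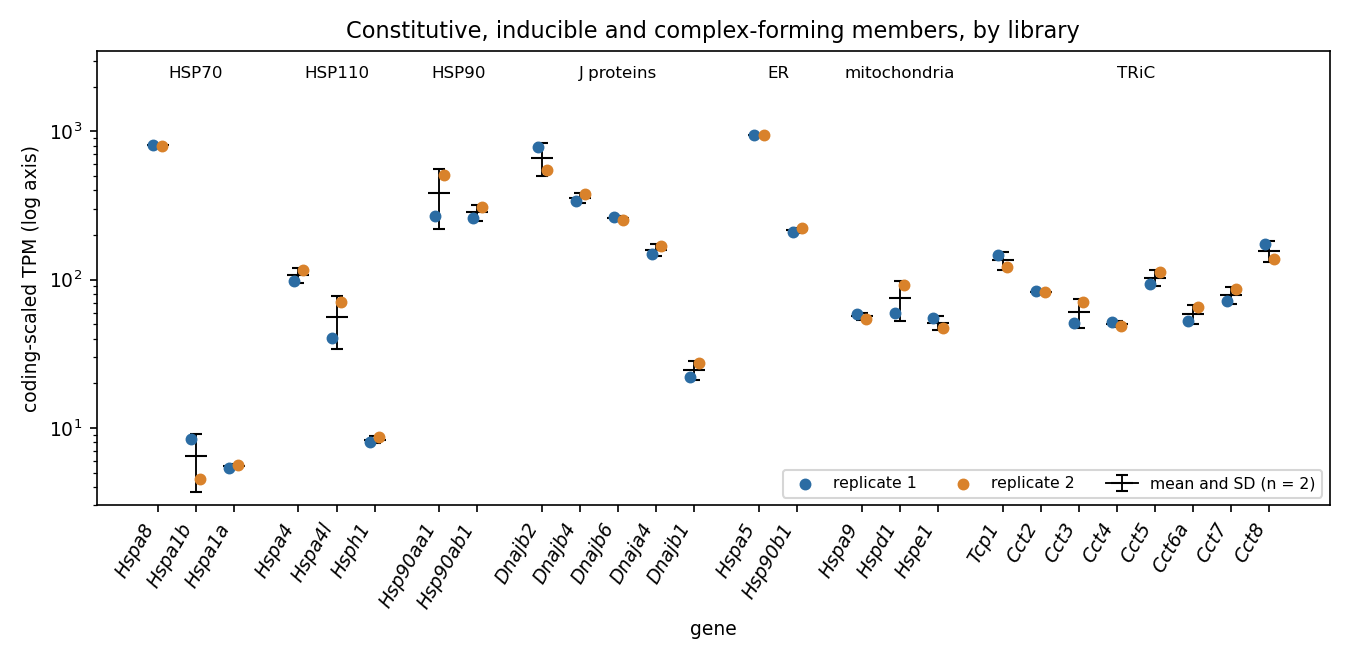
Level in coding-scaled TPM (vertical axis, logarithmic) of named genes by role, with a point for each library and the mean with its SD (n = 2). Hspa8 (809 and 801) lay far above the inducible Hspa1a (5.33 and 5.66) and Hspa1b (8.35 and 4.50), and TRiC subunits lay between 48.6 and 174.

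The endoplasmic reticulum held the highest member of all. Hspa5 (chr2:34771970-34777547, plus strand) encodes BiP, the HSP70 of that compartment and a sensor of unfolded protein there. It had 946 and 950 (948 ± 3.24, SD, n = 2), from 33934 and 17382 counts. Hsp90b1 encodes GRP94, the HSP90 of the same compartment, and had 209 and 222 (215 ± 9.18). All 8 genes placed in the group of this compartment reached 1, with a median of 41.6 ± 8.08 (SD, n = 2). The group is a chosen set and need not hold every gene of the compartment. Of its J proteins, Dnajc10 (ERdj5, which reduces disulfide bonds) had 115 and 63.7, and Dnajb11 (ERdj3, which binds clients for BiP) had 44.6 and 68.3. Dnajc3 (P58IPK, induced by unfolded protein) had 27.1 and 30.9, and Dnajb9 (ERdj4) had 16.3 and 11.3. Dnajc10 also depended on the transcripts included: its processed transcript Dnajc10-205, of 576 bases, took 53.0% of the gene's TPM in replicate 1 and 16.1% in replicate 2. Hspa13, an HSP70 relative attached to microsomes, had 7.82 and 12.2, and Dnajc1 had 7.82 and 10.3.

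Promoters of 3 of these genes are shown since they share the stress element of the endoplasmic reticulum, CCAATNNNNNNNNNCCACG, the known site of the unfolded protein response. It was searched on both strands and is in capitals in the 250 bases before the RefSeq start site (GRCm38.p6).
Hspa5, chr2:34771840-34772089, plus strand: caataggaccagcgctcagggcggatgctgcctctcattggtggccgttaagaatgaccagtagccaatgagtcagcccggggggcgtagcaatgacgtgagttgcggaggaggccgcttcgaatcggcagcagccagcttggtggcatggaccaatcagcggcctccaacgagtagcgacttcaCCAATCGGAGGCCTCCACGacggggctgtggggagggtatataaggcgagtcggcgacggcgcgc
Hsp90b1, chr10:86705445-86705694, minus strand: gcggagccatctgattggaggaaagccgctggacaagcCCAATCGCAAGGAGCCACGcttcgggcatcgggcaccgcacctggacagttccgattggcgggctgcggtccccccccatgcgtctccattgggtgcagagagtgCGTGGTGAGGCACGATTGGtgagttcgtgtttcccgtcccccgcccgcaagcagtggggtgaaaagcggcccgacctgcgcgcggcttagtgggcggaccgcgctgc
Dnajc3, chr14:118937682-118937931, plus strand: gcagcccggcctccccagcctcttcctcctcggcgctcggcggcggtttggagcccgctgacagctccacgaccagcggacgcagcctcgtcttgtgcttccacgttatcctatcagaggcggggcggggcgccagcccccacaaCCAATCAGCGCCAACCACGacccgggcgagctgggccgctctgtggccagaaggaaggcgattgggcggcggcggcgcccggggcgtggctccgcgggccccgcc
The element begins 65 bases before the start site in Hspa5 and 105 bases before it in Dnajc3. Hsp90b1 holds it at 212 bases and, on the other strand, at 107 bases. Among the 65 members with a listed promoter these 3 held it (4.62%), against 0.130% of the promoters of 27025 genes (35 genes). A match describes the letters of the window and is not a measured binding site.

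All 9 genes placed in the mitochondrial group reached 1, with library medians of 41.8 and 13.5. Their mean, 27.6, was 16.6 without retained intron and processed transcripts. Hspa9 (mortalin, the mitochondrial HSP70 that pulls proteins in and takes part in making iron-sulfur clusters) had 58.6 and 54.5 (56.5 ± 2.84, SD, n = 2). Hspd1 encodes HSP60, the mitochondrial chaperonin, and had 59.2 and 91.8. Hspe1 encodes its lid, HSP10, and had 54.9 and 47.4. Per length, Hspe1 over Hspd1 was 0.928 in replicate 1 and 0.517 in replicate 2, so the ratio was not stable between libraries. The log2 ratio of replicate 2 over replicate 1, on counts scaled by TMM, was 0.56 for Hspd1 (95% counting interval 0.47 to 0.66) and -0.30 for Hspe1 (-0.53 to -0.07), and these intervals do not overlap. The genes lie head to head and share 112 exon bases on opposite strands, and no source used here gives the strand setting of the counting, so reads in that stretch cannot be assigned with certainty.

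The stretch before the start of Hspe1 is shown since a listed start of Hspd1 shares most of it. In the 250 bases before the RefSeq start site of Hspe1 (GRCm38.p6), capitals mark 4 units in a row of the heat shock motif.
Hspe1, chr1:55087898-55088147, plus strand: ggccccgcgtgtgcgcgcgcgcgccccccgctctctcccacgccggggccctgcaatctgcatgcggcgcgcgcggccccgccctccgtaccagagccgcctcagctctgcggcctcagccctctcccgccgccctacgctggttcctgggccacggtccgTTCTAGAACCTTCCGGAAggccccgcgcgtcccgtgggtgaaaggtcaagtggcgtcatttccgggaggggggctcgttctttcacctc
Hspd1 has start sites listed at 55088243 and 55087932 on the minus strand. The window of the start at 55087932 shares 215 of 250 bases with that of Hspe1, so the same letters count for both genes. The start at 55088243 lies 95 bases past the start of Hspe1, and its window shares 0 bases with that of Hspe1 and holds 0 pairs of units.

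Of the 6 J genes in the mitochondrial group, 3 were lower in replicate 2 beyond counting error, while Dnajc11 and Dnajc28 were higher beyond it. Among the 7658 protein-coding genes that averaged 100 counts or more, 37.9% had an interval below 0 and 31.5% above it. Dnajc19 and Dnajc30 averaged 88.2 and 67.5 counts, under that limit. Dnajc15 and Dnajc19 belong to the motor that imports proteins. Dnajc15 had 43.2 and 10.2, from 301 and 39 counts, all in a transcript classed as subject to nonsense-mediated decay. Dnajc19 had 19.6 and 8.12, from 145 and 31.7 counts, and shares 178 exon bases with Fxr1 on the opposite strand. Dnajc30, a single-exon gene, had 4.80 and 2.32, from 108 and 27 counts. Their log2 ratios of replicate 2 over replicate 1 were -2.07 (95% counting interval -2.59 to -1.59) for Dnajc15, -1.30 (-1.90 to -0.74) for Dnajc19 and -1.12 (-1.79 to -0.50) for Dnajc30. Dnajc11, of the inner membrane organising system, had 41.8 and 52.8, or 19.2 and 27.4 without retained intron and processed transcripts. Dnajc28 had 12.5 and 13.5, and Dnaja3, a J protein of the matrix, had 10.1 and 11.3. The log2 ratios were 0.46 (0.34 to 0.57) for Dnajc11, 0.27 (0.06 to 0.48) for Dnajc28 and 0.09 (-0.16 to 0.34) for Dnaja3.

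The cytosolic chaperonin TRiC, a ring that folds actin and tubulin, was expressed in full. By level the subunits ran in the order Cct8 (174 and 138), Tcp1 (148 and 122), Cct5 (93.8 and 112), Cct2 (83.5 and 82.4), Cct7 (71.5 and 86.4), Cct3 (51.3 and 70.2), Cct6a (52.7 and 65.0) and Cct4 (52.2 and 48.6). The 7 subunits counted as members had a median of 85.0 ± 2.06 (SD, n = 2), and the spread over all 8 (SD over mean) was 0.512 in replicate 1 and 0.340 in replicate 2. Cct8 overlapped with Tcp1, Cct2 with Cct7, and Cct3 with both Cct6a and Cct4, so these neighbours were not separated beyond the spread of the libraries. Cct8 and Tcp1 lay in both libraries above every other subunit by level. Cct8-202, a coding transcript of 716 bases, held 44.5% and 34.1% of the TPM of Cct8 but 24.2% and 16.1% of its counts. By counts Cct8 lay above Cct5 and Cct7 in replicate 1 (2561, 2375 and 2459). It lay below both in replicate 2 (1282, 1461 and 1541). The next setting leaves Cct8-202 in. Without retained intron and processed transcripts Tcp1 stood at 108 ± 1.304 and Cct8 at 137 ± 12.2 (SD, n = 2). All 7 member subunits had log2 ratios between the libraries from -0.21 to 0.20. Exon bases are shared on opposite strands by Tcp1 with Mrpl18 (141) and Acat3 (571), by Cct8 with Usp16 (192) and by Cct7 with Pradc1 (214).

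Among J proteins outside the endoplasmic reticulum and mitochondrial groups, 4 genes of the DNAJA and DNAJB classes had means above 100. Dnajb2 (HSJ1, which carries ubiquitin-binding motifs and is best known from neurons) had 783 and 550 (667 ± 165, SD, n = 2). Dnajb4 had 338 and 376, Dnajb6, a suppressor of protein aggregation, had 265 and 254, and Dnaja4 had 149 and 170. Without retained intron and processed transcripts Dnajb2 stood at 306 and 322, below Dnajb4 with 335 and 376, and Dnajb6 stood at 163 and 160. Dnajb1, the inducible partner of HSP70, had 22.1 and 27.3 (24.7 ± 3.64), below all 4 in each library. The widely expressed Dnaja1 had 81.2 and 47.6, and Dnaja2 had 31.1 and 38.0. Of the 14 genes in this group 11 reached 1, and the group median was 29.6 ± 4.26. Dnajb3 had 5.69 and 9.43, Dnajb12 had 41.8 and 45.4, and Dnajb14 had 3.38 and 3.77. Dnajb5 had 0 and 3 counts, and Dnajb7 and Dnajb8, known from testis, had none. Dnajb13, an axonemal J protein with levels of 2.40 and 2.90, shares 305 exon bases on the opposite strand with Ucp2, which had 46061 and 17297 counts, so its values are uncertain. Its level was 0 and 2.03 without retained intron and processed transcripts. Dnaja4 shares 1581 exon bases on the opposite strand with Wdr61 (382 and 222 counts).

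Dnajb6 is shown since its promoter carries 3 heat shock units in a row, in capitals, in the 250 bases before its first RefSeq start site (GRCm38.p6).
Dnajb6, chr5:29735648-29735897, plus strand: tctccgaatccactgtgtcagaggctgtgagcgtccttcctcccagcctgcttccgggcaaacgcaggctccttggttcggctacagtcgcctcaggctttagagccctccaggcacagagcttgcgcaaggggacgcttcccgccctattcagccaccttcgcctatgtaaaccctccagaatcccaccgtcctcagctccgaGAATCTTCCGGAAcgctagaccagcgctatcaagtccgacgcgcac
Some members, Hspa8, Hsp90aa1 and Hsp90ab1 among them, had no listed promoter and were not searched for any motif. Facing pairs of units stood in the promoters of 16 of 65 members (24.6%), against 14.5% of the promoters of 27025 genes. These included Hspa1a, Hspa1b, Hsph1, Dnaja1, Dnajb4, Dnaja4, Cct2 and Cct5, and also Hspb1 and Hspb3, which had no counts. The inducible Dnajb1 held 0 pairs at both listed starts. Runs of 3 units (GAANNTTCNNGAA or TTCNNGAANNTTC), each of which also holds pairs, stood in 3 of 65 members (4.62%), namely Dnajb6, Hspd1 and Hspe1, against 0.514% of all promoters (139 genes). Hspa1a shares its promoter letters with Hspa1b, and Hspd1 with Hspe1, so the genes counted are not independent and these shares are descriptions.

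The 20 remaining DNAJC genes, whose J domain sits in otherwise unrelated proteins, were lower, with a median of 7.06 ± 0.757 (SD, n = 2), and 15 reached 1. Dnajc8, associated with the spliceosome, led them at 273 and 329 (301 ± 39.8). Dnajc9, a histone chaperone, had 50.03 and 36.3, and Dnajc7, which also binds HSP90, had 27.5 and 53.2, or 19.1 and 11.9 without retained intron and processed transcripts. Dnajc2, which acts at the ribosome, had 35.2 and 39.2. The endosomal Dnajc13 had 29.9 and 14.9, Dnajc5, the cysteine string protein, had 15.4 and 13.3, and Dnajc21, needed for the large ribosomal subunit, had 6.93 and 10.4. Dnajc6 (auxilin, which recruits HSC70 to clathrin coats) had 5.42 and 6.24. Dnajc24, Dnajc17, Dnajc14, Dnajc16, Dnajc4, Dnajc25 and Dnajc12 also reached 1, with means from 1.65 to 12.04, and Dnajc24 had 2.93 and 3.05 without retained intron and processed transcripts. Under 1 in at least 1 library were Dnajc18 with 38 and 53 counts, Dnajc27 with 15 and 21, and Dnajc5g with 0 and 8. No counts were found for Dnajc5b and Dnajc22.

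Small heat shock genes were nearly undetected. Hspb1 (HSP27), Hspb2, Hspb3, Hspb7, Hspb8 and Hspb9 had no counts in either library. Hspb11, which encodes a protein of cilia transport, had 0 and 10 counts. Of the 8 genes only Hspb6 (HSP20, best known from muscle) reached 1 in both libraries, with 4.09 and 2.32, from 69 and 21 counts. All of its reads were assigned to a processed transcript, and the gene shares 122 exon bases with Proser3 and 3 with Lin37 on the opposite strand. Cryab, a small heat shock gene outside the naming rule, also had no counts. Of the prefix matches, Hspbap1 had 33.3 and 31.6, all in a transcript classed as subject to nonsense-mediated decay, and Hspbp1 had 2.04 and 3.34.

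Most genes listed beside the chaperones were expressed too. Of 45 listed genes 39 reached 1 (86.7%), against 43.9% of all protein-coding genes. The list includes 4 heat shock factors, of which 1 reached 1, and 5 other genes, of which 2 did. The median over the 45 was 15.2 ± 0.874 (SD, n = 2). A mean of at least 100 was reached by 4 of them, against 4.84% of all protein-coding genes. All 12 HSP90 partners, all 12 HSP70 partners, all 8 prefoldin and TRiC partners and all 4 J proteins without the prefix reached 1. The prefoldin subunits Vbp1 and Pfdn5, which hand actin and tubulin to TRiC, had 158 and 179 and 125 and 133. Hscb, the J protein of iron-sulfur cluster assembly, had 162 and 140. Bag1, an exchange factor of HSP70, had 109 and 110, and Ptges3 (p23, which stabilises closed HSP90) had 69.4 and 68.7. Heat shock factors, which drive the inducible genes, were low. Hsf1, the factor of the heat response, had 5.06 and 1.45 (141 and 21 counts). Hsf2 had 0.18 and 1.89 (7 and 35 counts), and Hsf4 and Hsf5 had no counts.

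Total RNA also holds messages that still contain introns. Reads in introns were not measured. What is given here is how far the levels rest on transcripts classed as retained intron or processed transcript. The second class does not imply an intron, and short transcripts can hold a larger share of TPM than of counts. Exon bases are shared with another annotated gene by 31 members in all, a count given without the share over all genes. Reads in such stretches are of uncertain origin. Some of the other genes, such as Gm5129 beside Dnajb6 and Gm37563 beside Dnajc13, had no counts. In the 14 members with a mean of at least 100, the leading transcript took 70.3% and 68.6% of the gene's TPM at the median, while for all 1038 protein-coding genes at that level it took 70.3% and 67.2%. It held over 50% in both libraries for 8 of 14 members, against 58.9% of those genes. Dnajb4-202 held 99.3% and 99.8% of its gene's TPM, Hspa5-202 86.4% and 83.6%, and Hspa8-202 76.7% and 75.3%. Retained intron and processed transcripts took a median of 15.5% of a member's TPM, ranging up to 63.7%, against 6.96% for all genes at that level. For 2 of the 14 members the leading transcript was of these classes, a count given without the share over all genes. Dnajb2-205, of 404 bases, held 44.7% and 28.9% of its gene's TPM but 13.1% and 7.05% of its counts. Hspa4-202, of 630 bases, held 52.5% and 61.8% of the TPM but 10.4% and 15.4% of the counts. Without these classes Dnajb2 stood at 314 ± 10.97 (SD, n = 2), Dnajb6 at 161 ± 1.76, Hspa4 at 38.5 ± 0.878 and Dnajc10 at 39.7 ± 8.20. Of the 61 members that reached 1, these 4 and 5 others moved by over 1.5 times. The others were Dnajc11, Dnajc7, Dnajc24, Dnajb13 and Hspb6. The share of all genes that moved this far is not given, so the count is a description only. Hspa5 stood at 884 ± 13.5 and Hspa8 at 769 ± 22.3.

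**Figure D3:**
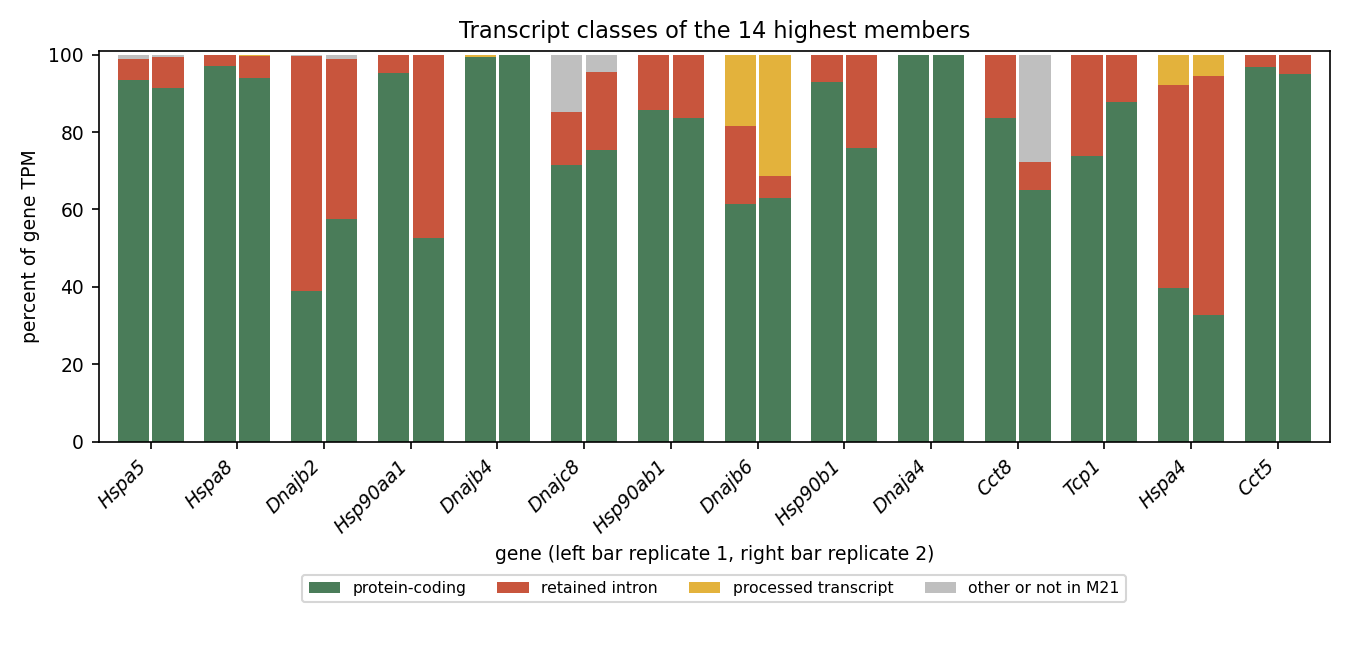
Percent of each gene's TPM (vertical axis) by class of transcript for the 14 members with a mean of at least 100, with the left bar for replicate 1 and the right bar for replicate 2. Retained intron transcripts took a large share in Dnajb2 and Hspa4, and in Hsp90aa1 in replicate 2.

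Between the libraries most members differed little. Counts were scaled by TMM, and the ratio was taken where the mean count was at least 100, which left 51 members. With 1 library on each side there is no test. A ratio of at least 2-fold was found for 2 of 51 members, against 8.54% of 7658 protein-coding genes. Dnajc15 had a log2 ratio of replicate 2 over replicate 1 of -2.07 (95% counting interval -2.59 to -1.59). Dnajc25, a membrane J protein, had 234 and 36 counts and a log2 ratio of -1.82 (-2.37 to -1.31). Its levels were closer, at 4.27 and 3.48, with gene lengths of 3826 and 1470 bases. Dnajc25-201 had 217 and 0 counts, Dnajc25-204 had 0 and 19.9, and Dnajc25-205 had 17.1 and 16.1. By counts Dnajc15 and Dnajc25 were lower in replicate 2, as were 5.62% of protein-coding genes. At least 2-fold higher there were 0 members, against 2.93%. The median log2 ratio was 0.00 over the members and -0.04 over the protein-coding genes. A ratio within 0.5 of 0 was found for 41 of 51 members (80.4%), against 70.3% of the genes. The interval lay above 0 for 19 members and below it for 18, against 31.5% and 37.9% of the genes. Hspa5 had -0.09 (-0.11 to -0.06), Hspa8 had -0.06 (-0.09 to -0.03), Hsp90aa1 had 0.10 (0.05 to 0.14) and Hsp90ab1 had 0.15 (0.10 to 0.20). The summed counts of Hspa1a and Hspa1b, 556 and 216, gave -0.49 (-0.72 to -0.26).

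**Figure D4:**
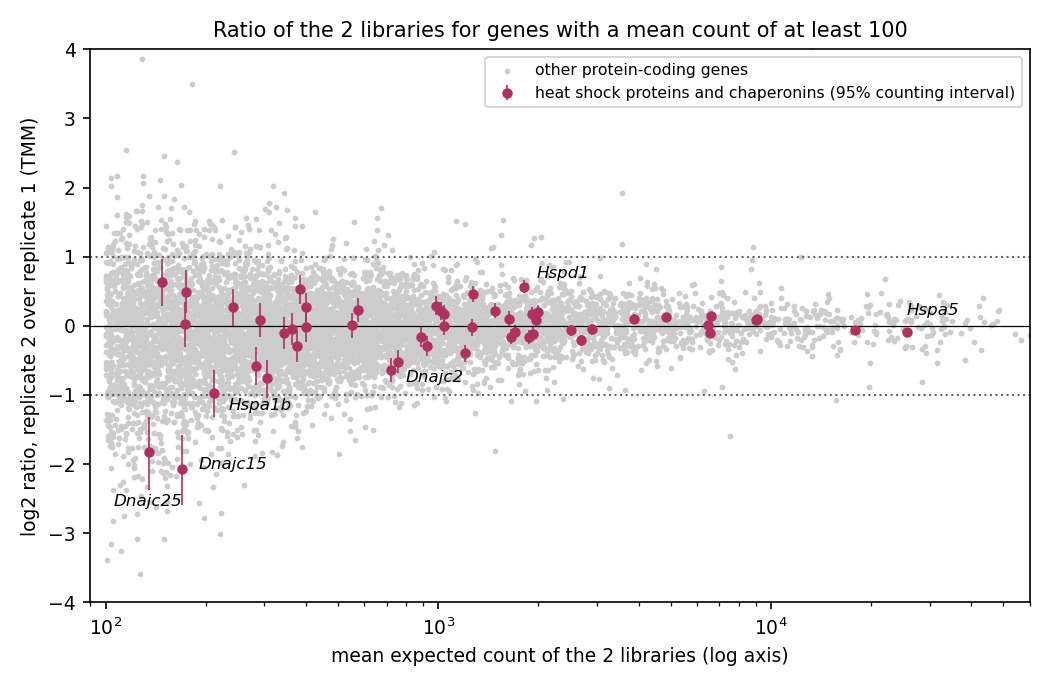
Log2 ratio of replicate 2 over replicate 1 (vertical axis) against the mean expected count (horizontal axis, logarithmic), with members in red with 95% counting intervals and other protein-coding genes in grey (33 of them lie outside the axes, and 1 with no count in a library is not drawn). Dotted lines mark 2-fold, and Dnajc15 (-2.07) and Dnajc25 (-1.82) are the members beyond them.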

How the data were processed

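RNA was measured in 2 libraries of mouse erythroblasts. The assembly was mm10 per the labels, with GENCODE M4 named in the text records deposited beside the tables. Aligner, quantifier and strand setting: not given in the sources used here. The authors deposited expected counts (estimated reads per gene or transcript), TPM with its posterior mean, and FPKM, per the file headers. Their transcript tables also give, per the file headers, each transcript's percent of its gene's TPM. Per the file headers they also hold a posterior standard deviation of each count, used here as a score of shared reads. No values were pooled.

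The members and all lists were chosen with earlier results of these data known. Of 43346 Ensembl genes, 42462 (98.0%) matched GENCODE M21 (GRCm38), which gave symbols, classes and coordinates. Of 344 member transcripts 326 matched. Levels are TPM rescaled over 21461 nuclear protein-coding genes. No member had a posterior SD above 3 times the square root of its count, the mark used for shared reads. Expected counts were rounded and scaled with TMM factors (edgeR 4.0.16, R 4.3.3), and ratios have exact Clopper-Pearson 95% intervals for counting error only. The ratio was checked on simulated counts. With 1 library on each side no p-value was computed. Features that name no gene held 8 and 28 counts and were left out. DESeq2 1.42.0 size factors were an alternative. Promoters came from RefSeq (GRCm38.p6), and no genome sequence was read otherwise except M21 transcripts for shared 50-base windows. Named genes were the 15 highest members, the highest of each role group, all TRiC subunits, inducible members and relatives, members at least 2-fold apart, at 0 or nearest the limit, the 5 highest partners and all heat shock factors. Members named beside these were taken to fill each role group after their values were seen. Of the erythroblast markers, 1 is not reported here. Tables were joined in Python 3.11.15 (pandas 2.3.3, scipy 1.17.1, numpy 2.4.6).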

Additional observations from a re-analysis of the deposited data

How the results depend on the processing

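No paired analysis was possible because the design holds 1 group. Leaving out either replicate kept members reaching 1 between 61 and 64 and the members' share of coding TPM between 0.610% and 0.626%. With a limit of 1 in deposited TPM, 35 members reached it. Without globins in the total, the share was 0.964%, and role group medians were 46.0 (DNAJA and DNAJB), 11.1 (DNAJC), 85.7 (HSP110), 133 (TRiC), 7.70 (cytosolic HSP70), 518 (cytosolic HSP90), 64.5 (endoplasmic reticulum) and 27.5 (prefix matches). The share of counts was 0.8001%. Over members that reach 1, medians were 43.6 (DNAJA and DNAJB), 9.44 (DNAJC), 7.004 (cytosolic HSP70) and 3.20 (small heat shock). By posterior mean TPM they were 0.152 (Hspa12a and Hspa12b), 17.4 (prefix matches) and 0.232 (small heat shock). Without retained intron and processed transcripts, a setting chosen after seeing the data, the DNAJC median was 5.32. By counts, Hspe1 over Hspd1 was 0.201 and Hspa8 over the inducible pair 49.6. Protein-coding genes held 11.3% and 6.89% of deposited TPM in the libraries, and a ratio of deposited TPM carries that difference. By that ratio 11 members were at least 2-fold apart (21.6% of members, against 29.6% of protein-coding genes). Its median log2 value over all genes was -0.67, against -0.03 with TMM. With TMM, members at least 2-fold apart numbered 9 at a mean count of at least 10 (14.1% against 21.9%). They numbered 14 with any count (20.3% against 32.4%), and 6 members were at least 1.5-fold apart (11.8% against 23.8%). The cause of these moves was not tested beyond what each setting changes by construction. With 2 libraries, levels that differ by less than their spread cannot be ordered, and members under about 100 counts have wide intervals.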
